A study of Rattus norvegicus with 6 samples.

Results

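The microRNAs (miRNAs) rno-miR-122-5p, rno-miR-192-5p and rno-miR-194-5p, here without their rat prefix, are products of liver and gut and were followed in exosomes, the small vesicles that cells shed into blood, isolated from rat serum. They were taken by name from a table of 763 mature rat miRNAs, in which all 3 were present. The animals were male Sprague-Dawley rats, 9 to 10 weeks old and 250 to 280 g in weight, under pentobarbital anaesthesia. The IPC group, of 3 samples, had undergone ischemic preconditioning, with a thread around the left anterior descending coronary artery (LAD) tightened and released 3 times, for 5 min of ischemia and then 5 min of reperfusion each. The control group, of 3 samples, gave blood from the left ventricle as the IPC group did, but had no preconditioning, and no sham operation is described. Whether samples of one group are separate rats is not stated, so each p-value speaks only of how these samples vary, and that variation may be technical. The comparison asks which serum exosomal miRNAs differ after preconditioning of the heart, and these 3 miRNAs are known mainly from organs other than the heart.

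A miRNA is cut from a hairpin transcript and guides silencing of mRNAs that pair with its seed, bases 2 to 8 from the 5′ end. miR-122-5p is the dominant miRNA of hepatocytes, where it acts on lipid and cholesterol metabolism, and it appears in blood when hepatocytes release it. miR-192-5p and miR-194-5p are abundant in liver, in the epithelium of the intestine and in kidney, and are made from shared transcripts, so neither marks a single organ.

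The mature sequences are shown because they decide how reads can be assigned and which members share a seed. They are RefSeq's, from build GRCr8, with the seed in capitals, and miR-215, the partner of miR-192-5p by seed, is added.
miR-122-5p: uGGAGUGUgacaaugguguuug
miR-192-5p: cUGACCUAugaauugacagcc
miR-194-5p: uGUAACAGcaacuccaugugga
miR-215: aUGACCUAugauuugacagaca
The 3 members thus have 3 different seeds. Among the 693 mature names of that sequence table, no other carries the seed of miR-122-5p or of miR-194-5p, and miR-215 alone carries that of miR-192-5p. miR-192-5p (21 bases) and miR-215 (22 bases) have the same base at 18 positions when aligned at the 5′ end. miR-215 was not analysed here.

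In GRCr8 the gene of miR-122 lies on the plus strand of chromosome 18, inside a transcribed pseudogene and overlapping the miRNA gene Mir3591, whose product was not analysed here. The hairpin of miR-122 is at chr18:61028817-61028901. Mir192 lies on the plus strand of chromosome 1, 100 bases downstream of Mir194-2, between the protein-coding genes Atg2a and Ehd1 and inside neither, and these hairpins are at chr1:212994209-212994318 and chr1:212994024-212994108. A second copy, Mir194-1, lies on chromosome 13 within the gene Iars2, 191 bases upstream of Mir215, at chr13:99382716-99382798 on the plus strand. The 2 hairpins of miR-194 are shown because they give the same mature 5p sequence from different precursors, with annotated mature arms in capitals.
Mir194-2: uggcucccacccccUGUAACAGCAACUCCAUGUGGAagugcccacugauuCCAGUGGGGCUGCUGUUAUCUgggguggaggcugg
Mir194-1: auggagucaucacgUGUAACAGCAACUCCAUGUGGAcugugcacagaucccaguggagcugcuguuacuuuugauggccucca
Reads of miR-194-5p therefore cannot be divided between the copy next to Mir192 and the copy next to Mir215. The authors' build was rn6, so these positions serve only to place the sequences.

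The deposited values are normalised to a common library size of 265919, and whole read counts could be recovered from them. Recovered totals ran from 319285 to 762927 in IPC libraries and from 111048 to 152343 in controls, so the shallowest IPC library was still deeper than any control. Of the 763 miRNAs, 226 passed a filter on low counts and were tested, the 3 members among them. limma called 0 of the 226 (0%) at an adjusted p below 0.05, 24 (10.6%) had an unadjusted p below 0.05, and limma-voom on the recovered counts called 0, with 23 at that unadjusted level. With control replicate 2 left out, limma called 29 miRNAs higher and 9 lower, and none of the 3 members was among them.

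None of the 3 liver and gut miRNAs passed the limma test between IPC and control samples, and for none did the groups separate. miR-122-5p averaged 2135 ± 1019 normalised counts after IPC, against 3208 ± 476 in controls (mean ± SD of n = 3 libraries per group). miR-192-5p averaged 859 ± 288 after IPC, against 778 ± 168 in controls. miR-194-5p averaged 41.6 ± 5.14 after IPC, against 41.3 ± 41.9 in controls. At an unadjusted p below 0.05 there were 0 of 3 members, against 10.6% of all tested miRNAs. All IPC libraries lay above or below all controls for 0 of 3 members, against 13.7% of all tested.

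**Figure D1:**
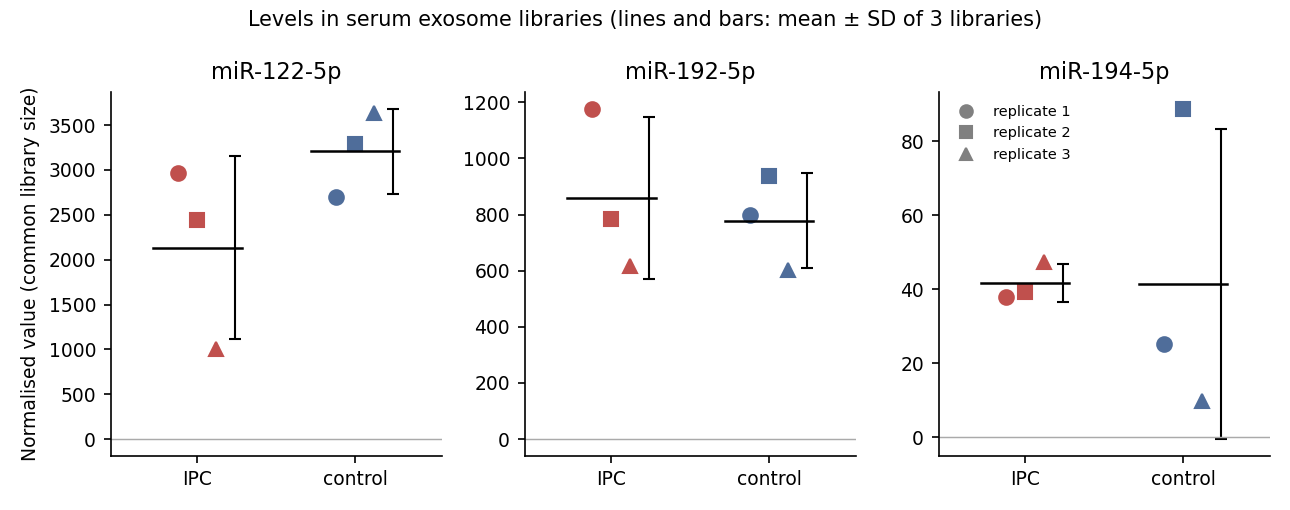
Normalised value (linear axis) of miR-122-5p, miR-192-5p and miR-194-5p in each IPC and each control library, with symbols for replicates and lines with bars for the mean ± SD of 3 libraries. The groups overlap in every panel, with miR-122-5p lowest in IPC replicate 3 at 999.5 and miR-194-5p highest in control replicate 2 at 88.8.

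miR-122-5p, the hepatocyte miRNA, was at 2968, 2437 and 999.5 normalised counts in IPC replicates 1 to 3, against 2696, 3289 and 3638 in control replicates 1 to 3. IPC replicates 2 and 3 lay below all controls, while IPC replicate 1 lay between control replicates 1 and 2. These values rest on 7964, 5814 and 1349 recovered counts after IPC and 882, 2658 and 1593 in controls. The log2 fold change was -0.72 (SE 0.63; limma, adjusted p = 0.664), with a 95% interval of -2.10 to 0.66. Without IPC replicate 3 it was -0.24, and without IPC replicate 1 it was -1.03. The interval spans a fall to 0.233 of the control level and a rise to 1.58 times that level, so a change of either size was not excluded at this number of samples.

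The spread of miR-122-5p was set beside that of the other miRNAs on the scale of value + 1. Its highest IPC value was 2.97 times its lowest, place 146 of 226 from the narrowest, where the median tested miRNA spanned 2.33-fold. Among controls it spanned 1.35-fold, place 6 from the narrowest, where the median was 3.94-fold. These spans rest on the deposited scaling. As a share of counts, miR-122-5p was at 0.794%, 1.74% and 1.23% in control replicates 1 to 3, a wider spread. It ranked 16, 22 and 37 by count in IPC replicates 1 to 3, against 17, 12 and 15 in control replicates 1 to 3, so that its place was lowest in IPC replicate 3. In the authors' deposited table its log2 fold change was -0.59 with an unadjusted p of 0.412.

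miR-192-5p, of liver, intestine and kidney, was at 1178, 784 and 616 normalised counts in IPC replicates 1 to 3, against 798, 936 and 601 in control replicates 1 to 3. The highest of the 6 was an IPC library and the lowest a control, with the rest interleaved. The recovered counts were 3159, 1871 and 831 after IPC and 261, 756 and 263 in controls. The log2 fold change was 0.11 (SE 0.61; limma, adjusted p = 0.956), with a 95% interval of -1.22 to 1.44, and it took the other sign without IPC replicate 1 (-0.14) or control replicate 3 (-0.060). Its pooled within-group SD on the log2 scale was 0.40, the 15th narrowest of 226, against a median of 0.92. On the scale of value + 1, IPC libraries spanned 1.91-fold and controls 1.56-fold. These spreads also rest on the deposited scaling. As a share of counts, miR-192-5p was at 0.235%, 0.496% and 0.203% in control replicates 1 to 3. In the authors' deposited table its log2 fold change was 0.14 with an unadjusted p of 0.839.

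miR-194-5p, which shares transcripts with miR-192 and with miR-215, was at 37.9, 39.3 and 47.4 normalised counts in IPC replicates 1 to 3, against 25.3, 88.8 and 9.88 in control replicates 1 to 3. The IPC libraries lay close together, inside a control range of 8.26-fold (value + 1). IPC libraries spanned 1.24-fold, the 10th narrowest of 226, whereas the control range was the 174th. These values rest on 102, 94 and 64 recovered counts after IPC, and on 8, 72 and 4 in controls. The exact 95% counting interval of the 8 counts ran from 3.45 to 15.8, and that of the 4 counts from 1.09 to 10.2. The share of counts in control replicate 2 was 0.0473% (exact 95% interval 0.0370 to 0.0595%), above the 0.00720% of control replicate 1 (0.00311 to 0.0142%) and the 0.00308% of control replicate 3 (0.000840 to 0.00789%). The spread of the controls was thus larger than counting error alone.

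The log2 fold change of miR-194-5p was 0.52 (SE 0.86; limma, adjusted p = 0.805), with a 95% interval of -1.36 to 2.40, although the group means differed by less than 1 normalised count. Leaving out control replicate 2 gave 1.33 and leaving out control replicate 3 gave -0.20, so its size and its sign depended on which controls were included. In the authors' deposited table it was -0.0082 with an unadjusted p of 1.

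**Figure D2:**
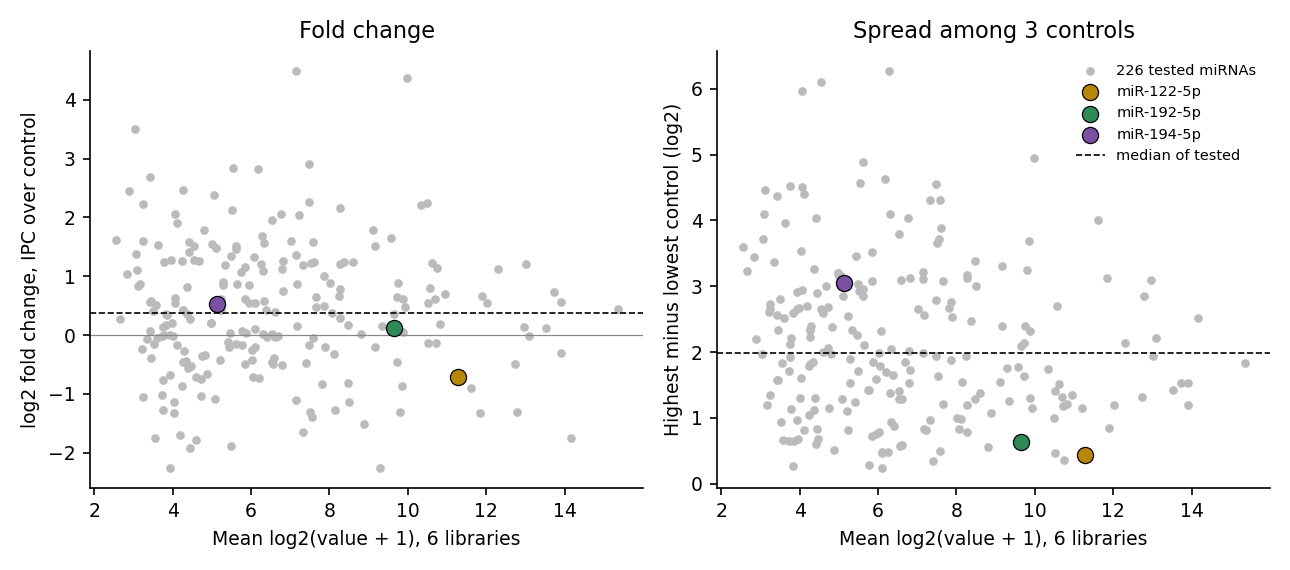
Left, log2 fold change of IPC over control against the mean log2(value + 1) over 6 libraries for the 226 tested miRNAs in grey, with the 3 members coloured and the median of 0.38 dashed. Right, the difference between the highest and the lowest control on the log2 scale, with the deposited scaling. There miR-122-5p at 0.43 and miR-192-5p at 0.64 lie near the bottom and miR-194-5p at 3.05 lies above the median of 1.98.

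The fold changes depend on what is taken as no change. The median log2 fold change of all 226 tested miRNAs was 0.38, and scaling by median-of-ratios size factors moved it by -0.39. Relative to the median of all tested miRNAs, miR-122-5p was at -1.10 with the deposited scaling and -1.13 with median-of-ratios scaling. miR-192-5p was at -0.27 and -0.30 on the same terms, and miR-194-5p at 0.14 and 0.12. Without that reference to the median, the log2 fold change of miR-192-5p turned negative with median-of-ratios scaling (-0.31), while those of miR-122-5p (-1.14) and miR-194-5p (0.12) kept their sign. In order of log2 fold change from the lowest, the members stood at places 34, 95 and 125 of 226.

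A ratio of members within a library is free of library scaling. It does carry how readily each miRNA is captured by adapter ligation, which is shared by all libraries. The order miR-122-5p above miR-192-5p above miR-194-5p held in all 6 libraries, on counts of mature miRNAs of nearly equal length. miR-122-5p stood at 2.52, 3.11 and 1.62 counts per count of miR-192-5p in IPC replicates 1 to 3, against 3.38, 3.52 and 6.06 in control replicates 1 to 3. All IPC libraries lay below all controls in this ratio. The exact 95% counting intervals of the nearest pair overlapped, at 2.95 to 3.28 in IPC replicate 2 and 2.94 to 3.89 in control replicate 1. On the deposited values plus 1, the mean log2 ratio was 1.22 ± 0.48 after IPC, against 2.05 ± 0.47 in controls, a difference of -0.83 or 0.561-fold (two-sided exact permutation test, p = 0.1, the smallest that 3 against 3 samples allow; adjusted over 3 ratios 0.3). Of the log2 ratios of all 25425 pairs of tested miRNAs, 12.3% also had no overlap between the groups, so 1 of 3 member ratios is read against that share.

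The other ratios overlapped between the groups. miR-122-5p stood at 78.1, 61.9 and 21.1 counts per count of miR-194-5p in IPC replicates 1 to 3, against 110.2, 36.9 and 398.2 in control replicates 1 to 3. Control replicates 1 and 3 were the highest and control replicate 2 fell among the IPC libraries. The mean log2 ratio was 5.51 ± 1.01 after IPC, against 6.75 ± 1.60 in controls, a difference of -1.24 (two-sided exact permutation test, p = 0.4, adjusted over 3 ratios 0.6). Leaving out control replicate 2 gave -2.02, leaving out control replicate 3 gave -0.42, and leaving out IPC replicate 3 gave -0.67.

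miR-192-5p and miR-194-5p, whose genes lie side by side on chromosome 1, were far apart in level. There were 31.0, 19.9 and 13.0 counts of miR-192-5p per count of miR-194-5p in IPC replicates 1 to 3, against 32.6, 10.5 and 65.8 in control replicates 1 to 3. The lowest and the highest ratio were both controls. With 4 counts of miR-194-5p in control replicate 3, the exact 95% interval of its ratio ran from 25.4 to 243.1. The mean log2 ratio was 4.29 ± 0.63 after IPC, against 4.70 ± 1.22 in controls, a difference of -0.41 (two-sided exact permutation test, p = 0.7, adjusted over 3 ratios 0.7), and 0.14 without control replicate 3.

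**Figure D3:**
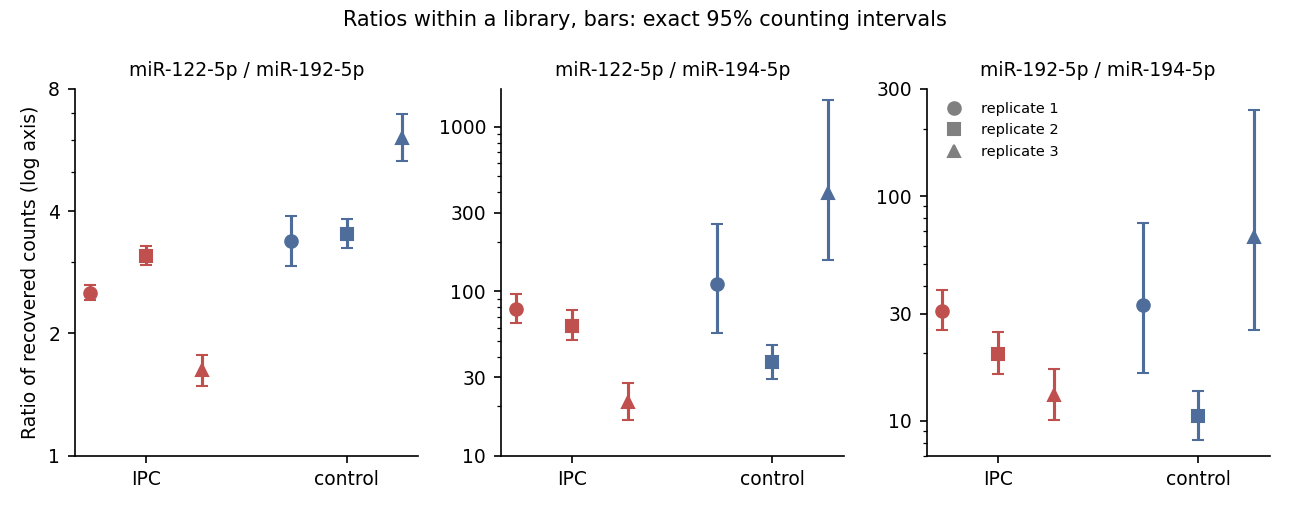
Ratios of recovered counts of the 3 members in each library (log axes), with exact 95% counting intervals as bars, IPC libraries left and controls right. In the first panel the IPC libraries, at 1.62 to 3.11, lie below the controls, at 3.38 to 6.06, and in the other panels the groups overlap.

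Together the 3 members took 1.47%, 1.18% and 0.703% of recovered counts in IPC replicates 1 to 3, against 1.04%, 2.29% and 1.43% in control replicates 1 to 3. The exact 95% intervals of these shares were at most 0.151 percentage points wide, and only those of IPC replicate 1 and control replicate 3 overlapped between the groups. The mean share was 1.12% ± 0.388 after IPC, against 1.59% ± 0.640 in controls (SD over n = 3 libraries each; two-sided exact permutation test, p = 0.5), and the groups overlapped. The difference of -0.469 percentage points was -0.118 without control replicate 2, -0.744 without control replicate 1 and -0.262 without IPC replicate 3. Taking the 10 most abundant miRNAs out of the total raises every share, so the difference of -1.57 found then is not comparable in size (two-sided exact permutation test, p = 0.3). Of all counts, miR-122-5p made up most of the members' share, with 0.782% ± 0.322 after IPC and 1.26% ± 0.476 in controls. miR-192-5p took 0.319% ± 0.0830 after IPC and 0.311% ± 0.161 in controls. miR-194-5p took 0.0159% ± 0.00364 after IPC and 0.0192% ± 0.0244 in controls. A lower share cannot be told apart as fewer vesicles from a tissue, less of the miRNA in each vesicle or more counts of other miRNAs.

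The opposite arms of these hairpins were almost without reads. miR-122-3p had 5 counts in IPC replicate 1 and 0 in the other 5 libraries, against 15127 counts of miR-122-5p over the IPC libraries and 5133 over the controls. miR-192-3p had 1 count, also in IPC replicate 1, and miR-194-3p had 0 in all 6 libraries. A count of 0 allows up to 3 counts in a library, so no difference between the groups was detectable for these arms, and no fold is given.

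Other miRNAs of liver and of gut epithelium were listed with the members. In the liver-related list of 7, 5 had counts and 4 were tested, 3 with positive and 1 with negative log2 fold changes (median 0.28, against 0.38 over all tested). Over all tested miRNAs, 142 of 226 were positive. With median-of-ratios scaling 2 of the 4 were positive and the median was -0.14. None passed an unadjusted p below 0.05. Both arms of miR-802, a miRNA of liver and pancreas, had 0 counts in all libraries. miR-148a-3p, abundant in liver but also first by count in every library except control replicate 3, where it ranked 4, was at 53053, 50193 and 43163 normalised counts in IPC replicates 1 to 3, against 82473, 23928 and 23044 in control replicates 1 to 3. Control replicate 1 was above, and the other controls below, every IPC library. miR-122-5p had 0.0559, 0.0486 and 0.0232 counts per count of miR-148a-3p after IPC and 0.0327, 0.137 and 0.158 in controls, so these liver-related miRNAs did not keep a fixed ratio among controls.

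In the list of 11 miRNAs of gut and other epithelia, 9 had counts and 5 were tested, 4 with positive and 1 with negative log2 fold changes (median 0.11) and none at an unadjusted p below 0.05. The 4 positive are read against 142 of 226 over all tested. With median-of-ratios scaling 2 of the 5 were positive (median -0.30), and with limma-voom 3. miR-200a-3p, which holds epithelial cells in their state by silencing Zeb factors, was at 61.3, 134.0 and 65.1 normalised counts in IPC replicates 1 to 3, against 19.5, 185.2 and 5.30 in control replicates 1 to 3. Its order among controls was that of miR-194-5p, highest in replicate 2 and lowest in replicate 3. This order was not particular to epithelial miRNAs, and its share over all tested miRNAs was not counted. Of the red-cell miRNAs, miR-16-5p had it (22.3, 87.6 and 9.88 in control replicates 1 to 3). miR-451-5p did not (4245, 1903 and 3208). In the family of miR-200a-3p, miR-141-3p had 27, 19 and 6 counts after IPC and 0, 15 and 0 in controls. Its relative miR-429 had 12, 11 and 18 after IPC and 0, 11 and 0 in controls. Both lay below the filter on low counts, and control replicate 2 was the only control with reads of either. miR-200c-3p had 7, 7 and 8 counts after IPC and 0 in all controls, in libraries of lower depth. miR-375-3p, of pancreatic islets and gut endocrine cells, was at 192.7, 232.0 and 63.6 after IPC and at 189.8, 178.2 and 226.0 in controls, lowest like miR-122-5p in IPC replicate 3.

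The miRNAs whose levels followed the members most closely differed from member to member. Nearness was taken by Pearson's r of log2(value + 1) over the 6 libraries. These differ in depth, which goes with the group, and r was adjusted for neither. By this measure miR-122-5p was nearest to miR-375-3p (r = 0.92), miR-3473 (0.90) and miR-187-3p (0.90). miR-192-5p was nearest to miR-125b-2-3p (0.90), miR-27a-3p (0.85) and miR-181b-5p (0.84). miR-194-5p was nearest to let-7d-5p (0.98), miR-542-3p (0.98) and miR-27b-3p (0.96), and let-7d-5p was at 214.5, 205.3 and 353.6 after IPC and at 129.3, 518.2 and 60.2 in controls. Among the members themselves, r was 0.41 between miR-122-5p and miR-192-5p, 0.49 between miR-192-5p and miR-194-5p, and -0.29 between miR-122-5p and miR-194-5p. The 3 nearest miRNAs were picked as the highest of 225 values of r for each member, and all these values describe 6 libraries only.

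Markers of other sources of blood miRNAs were set beside these values. Red-cell miRNAs, 5 of 5 with counts, took 4.93% to 5.81% of counts after IPC and 4.09% to 7.77% in controls, with 3 of 5 log2 fold changes positive, or 2 of 5 with median-of-ratios scaling. For this and the lists below, 142 of 226 tested miRNAs were positive in the main analysis. The ratio of miR-451-5p, of red cells, to miR-23a-3p, a common index of haemolysis, was 0.767, 1.43 and 2.33 after IPC and 6.15, 3.33 and 16.0 in controls, with no overlap between the groups. Its denominator, miR-23a-3p, was at 1831, 1470 and 903 normalised counts after IPC and 690, 572 and 202 in controls, also with no overlap. The log2 fold change of miR-23a-3p was 1.64 (SE 0.69, limma adjusted p = 0.350). Over all tested miRNAs, 12.3% of pair ratios and 13.7% of single miRNAs likewise had no overlap between the groups. miR-451-5p itself was at 1405 to 2107 normalised counts after IPC and 1903 to 4245 in controls, with a log2 fold change of -0.69 (SE 0.60; limma, adjusted p = 0.664). miR-122-5p had 2.11, 1.16 and 0.475 counts per count of miR-451-5p after IPC and 0.635, 1.73 and 1.13 in controls, so against this red-cell miRNA the groups overlapped. Muscle miRNAs, 7 of 7 with counts, took 1.43% to 8.46% of counts after IPC and 0.217% to 1.83% in controls. All 7 had positive log2 fold changes (median 2.83), also with median-of-ratios scaling. In limma 7 of 7 had an unadjusted p below 0.05, against 10.6% of all tested, and 0 an adjusted p below 0.05. Of these, miR-133a-5p passed the filter on low counts through its IPC libraries only, with 0, 1 and 2 counts in control replicates 1 to 3. Its direction was thus set by that filter. Leukocyte miRNAs, 6 of 6 with counts, took 1.80% to 2.99% after IPC and 0.738% to 2.21% in controls. Of 5 tested leukocyte miRNAs 4 had positive log2 fold changes, also with median-of-ratios scaling. In limma 1 of the 5 had an unadjusted p below 0.05, against 10.6% of all tested, and 0 with median-of-ratios scaling. The part of these markers in the levels and ratios of the 3 members was not tested.

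**Figure D4:**
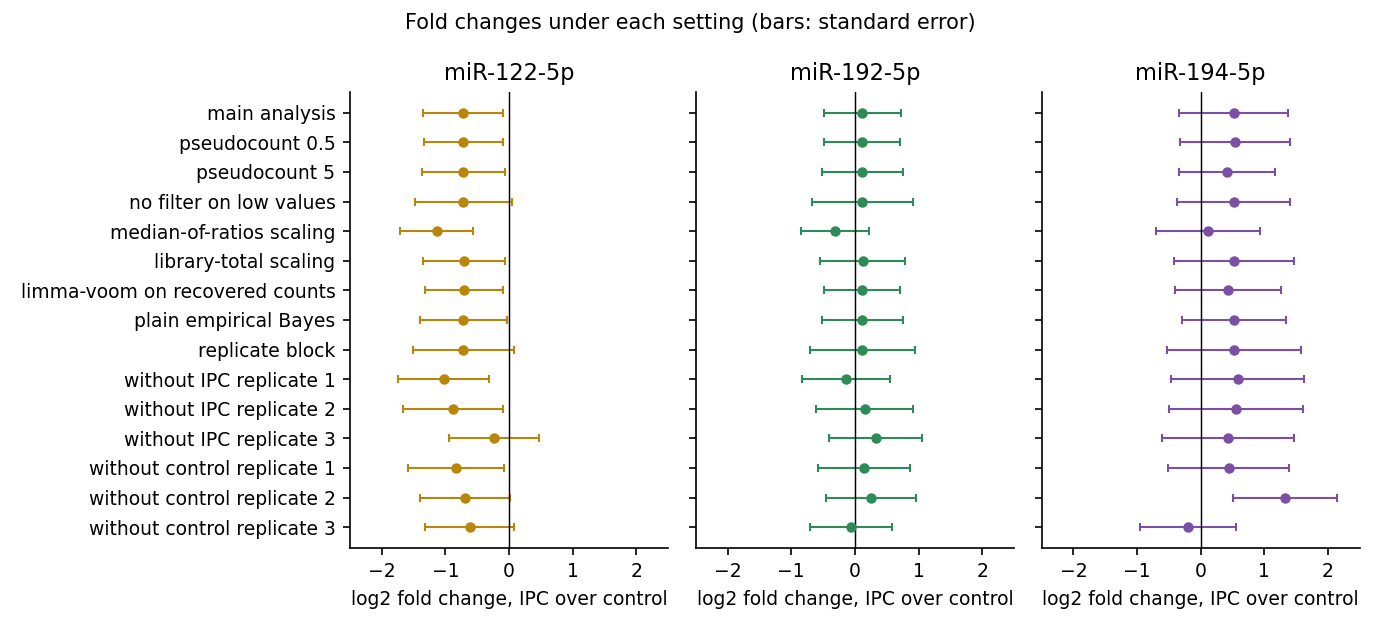
Log2 fold change of IPC over control of each member under the main analysis and each alternative, with standard errors as bars. miR-122-5p lies below 0 throughout, from -1.14 to -0.24, miR-192-5p lies on both sides of 0, and miR-194-5p runs from -0.20 with control replicate 3 left out to 1.33 with control replicate 2 left out.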

How the data were processed

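Serum exosome RNA (1 µg per sample) was made into small RNA libraries with a NEBNext kit and sequenced as 50 bp single reads, per the labels' protocols. FastQC, BWA, edgeR and rn6 are named in the submitters' processing notes, while details of trimming, alignment and annotation were not given in the sources used here. The deposited table holds a normalised signal per miRNA and library, and the authors' own log2 fold changes and p-values, unadjusted, per the file headers. By its values, the deposited signal looks like counts after quantile adjustment to one library size (dispersion 0.503). It was inverted within each group, which put 4578 of 4578 values less than 0.01 from whole counts. These include values of 0, which were taken as 0 counts without inversion. Of the 763 miRNAs, 480 had a count in any library. The library scaling factors in it, 0.783 to 1.41, equal a trimmed mean of M values computed on the recovered counts.

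The main test was limma 3.58.1 (R 4.3.3; trended, robust) on log2(value + 1), with a single term for group and Benjamini-Hochberg adjustment over all tested miRNAs. Fold changes on this scale understate those of low miRNAs. The filter asked for 34.9 CPM (10 counts in a library of median effective size) in 3 or more libraries and 15 counts in all. Ratios (pseudocount 1) and shares were compared by exact permutation over 20 assignments. Alternatives were other pseudocounts, filters, scalings and variance models, a replicate block, and leaving out each library. Intervals and floors cover counting error only, since reads carry no molecular identifiers. Replicate libraries differed beyond sampling noise (ratio of chi-square to its degrees of freedom 150.0 to 445.0). Sequences matched 686 of 763 names. The fits and the inversion were run on data simulated with the same adjustment and with fold changes far larger than the members'. That run cannot show how the deposited values were made. Named miRNAs were the members, their other arms, the liver and gut lists, and per member the 3 of highest r. Also named were miR-451-5p and miR-23a-3p, as the pair of the haemolysis ratio, miR-16-5p, as a red-cell comparison, and miR-133a-5p, for its low control counts. Members and lists were chosen with earlier results of these data known. Other computing used Python 3.11.15 (pandas 2.3.3, numpy 2.4.6, matplotlib 3.10.9, scipy 1.17.1).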

Additional observations from a re-analysis of the deposited data

How the results depend on the processing

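The number of miRNAs called by limma was 3 with no filter on low values, 2 with the replicate number as a block, and 0 to 38 with 1 library left out, the highest without control replicate 2; it was 0 under the other alternatives, and the 3 members were in none of these calls. The log2 fold change of miR-192-5p was -0.31 with median-of-ratios scaling, and -0.14 to 0.33 with 1 library left out. That of miR-194-5p was -0.20 to 1.33, and that of miR-122-5p -1.03 to -0.24, with 1 library left out. The difference in the log2 ratio of miR-192-5p to miR-194-5p was -1.07 to 0.14 with 1 library left out. The cause of these shifts was not tested. Adjusted p-values over the alternatives ran from 0.531 to 0.978 for miR-122-5p, 0.821 to 0.989 for miR-192-5p and 0.262 to 0.978 for miR-194-5p. The difference in the members' joint share was -0.744 to -0.118 percentage points with 1 library left out. With the 10 most abundant miRNAs taken out of the total it was -1.57, on larger shares and so not comparable in size. That difference and the other results kept their direction. The replicate block cannot move the members' log2 fold changes, since each number holds 1 library of each group. With it, the standard errors of miR-122-5p, miR-192-5p and miR-194-5p were 0.80, 0.82 and 1.05. In the main fit they were 0.63, 0.61 and 0.86. The numbers are not stated to mark a shared rat, litter or day, so they were not used to pair samples. Deviations from the group means correlated at r = 0.13, -0.18 and -0.51 between same-numbered libraries. Between differently numbered libraries r ran from -0.42 to 0.64, so these values do not decide whether samples were paired. Low counts limit the precision of miR-194-5p in control replicates 1 and 3 and of the 3p arms in all libraries.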
